A study of Mus musculus with 107 samples.

Results

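High-Stk25 and low-Stk25 livers are the ends of a ranking of F2 mice by the level of 1 gene, Stk25. The mice were chosen by their mean log ratio over the Stk25 probes, and the 26 highest were set against the 26 lowest, out of 104 mice with array values and 107 arrays in all, and 52 mice lay in between. All were female F2 mice of a cross of C57BL/6J with DBA/2J, all were fed an atherogenic diet, and each liver is a separate mouse with its own mixture of the parental genomes. No genotypes, no untreated animals and no second array of any liver were analysed here. Each 2-colour array set the liver RNA of 1 mouse beside a pool that held an equal share of RNA from every mouse. Levels below are log2 ratios of mouse to pool, with 0 meaning the level of the pool, and differences are high minus low on that log2 scale.

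Stk25 is a kinase of the GCKIII group, which also holds Stk24 and Stk26. These kinases bind Pdcd10 and work within the STRIPAK complex, in which striatins join a phosphatase to its partners. In hepatocytes STK25 protein sits on lipid droplets, and mice with extra STK25 on a fatty diet store more liver fat, while mice without it store less. Mouse Stk25 lies on chromosome 1, and in an F2 cross genes of the same chromosome are often inherited together.

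The promoter of Stk25 is shown because its transcript alone defines the groups, and that of Timm17a because its level followed Stk25 most closely in the positive direction. Both are 300-base windows of the C57BL/6J reference from RefSeq (GRCm38.p6), 5′ to 3′ on the minus strand, where both genes are read: chr1:93635678-93635977 for Stk25 and chr1:135313688-135313987 for Timm17a. Capitals mark matches to 4 motifs searched on both strands, which were the ZNF143 core motif (the 14-base runs below), the CCAAT box CCAAT, the TATA box TATAAA and the E-box CACGTG.
Stk25: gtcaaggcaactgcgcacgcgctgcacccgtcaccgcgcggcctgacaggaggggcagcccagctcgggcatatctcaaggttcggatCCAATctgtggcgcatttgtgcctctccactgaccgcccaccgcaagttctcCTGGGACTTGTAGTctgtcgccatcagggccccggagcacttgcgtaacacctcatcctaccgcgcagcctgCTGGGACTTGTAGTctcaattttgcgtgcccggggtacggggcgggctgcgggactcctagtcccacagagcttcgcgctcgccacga
Timm17a: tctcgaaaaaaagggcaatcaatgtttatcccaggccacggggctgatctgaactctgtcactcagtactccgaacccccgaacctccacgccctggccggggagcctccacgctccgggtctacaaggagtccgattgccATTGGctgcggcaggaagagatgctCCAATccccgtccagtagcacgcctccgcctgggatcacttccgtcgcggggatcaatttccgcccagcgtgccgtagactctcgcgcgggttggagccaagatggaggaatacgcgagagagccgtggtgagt
The Stk25 window held 2 matches to the ZNF143 core, which occurred in 0.521% of the 32851 promoter windows of the same table, and 1 CCAAT box, found in 37.4% of them. The Timm17a window held 2 CCAAT boxes and no ZNF143 core. Neither held a TATA box (13.6% of windows) or the E-box (7.15%). Matches are letters in the reference and not measured sites.

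The mean of the 2 Stk25 probes chose the mice, so the Stk25 values are a description. Stk25 was 0.31 at the lowest, 0.64 at the median and 0.84 at the highest in the 26 high mice. It was -0.57, 0.09 and 0.29 in the 52 middle mice, and -1.003, -0.75 and -0.59 in the 26 low mice. The mean was 0.61 ± 0.15 in high mice and -0.75 ± 0.11 in low mice (SD, n = 26 each), a ratio of 2.57-fold if the deposited ratios are log10 and 1.51-fold if they are natural logarithms.

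The first mouse outside the high group had 0.29 against 0.31 for the last inside it. The first mouse outside the low group had -0.57 against -0.59 for the last inside it. Neither border therefore fell at a break in the ranking. The wider breaks lay inside the middle mice, between -0.31 and -0.14 with 38 mice below it, and between -0.11 and 0.03 with 41 mice below it. Over all 104 mice the 2 probes ranked the mice alike, with Pearson r = 0.93 and Spearman rho = 0.93. Within the groups their Pearson r was 0.70 in high, 0.81 in middle and -0.34 in low mice. The probes thus did not rank the low mice alike among themselves. The high-to-low ratio was 2.14-fold by the first probe and 3.09-fold by the second. The first probe alone would have chosen 24 of the same high mice and 22 of the same low mice, and the second probe 25 and 24.

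**Figure D1:**
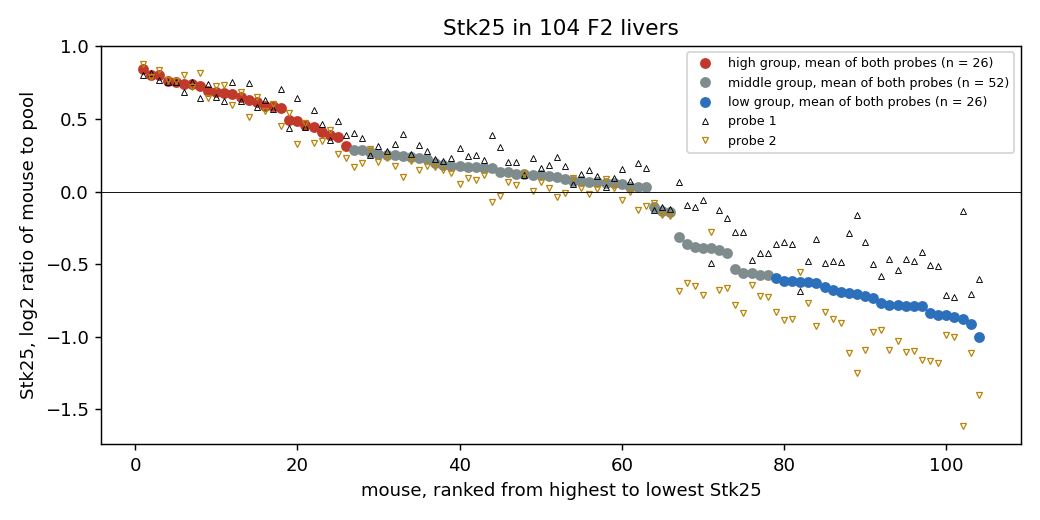
Stk25 level of each mouse (log2 ratio of mouse to pool, y axis) against its rank from highest to lowest (x axis), with the mean of both probes as filled circles and each probe as a triangle. The 26 high mice sit between 0.31 and 0.84 and the 26 low mice between -1.003 and -0.59, with the steepest steps inside the middle mice.

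Arrays differed in quality in ways that bear on every result. A set of 18 arrays held over 700 values each at the ends of the deposited scale, and these limit-rich arrays included 4 of the 26 high mice and 5 of the 26 low mice. The median SD over probes of an array was 0.47 in both the high and the low mice. The direction of the deposited ratios is not settled, since the labels name no dye and, of 5356 array pairs, 7 had a correlation below -0.3 (lowest -0.463). Turning every sign would exchange the high and low mice and leave each high-minus-low difference as it is. Turning single arrays, such as any of the 10 in these pairs, could move mice between groups and change the differences. That case was not tested. The titles name the mouse before the pool, which makes mouse over pool likely.

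Few genes other than Stk25 differed between the groups in the limma fit, and the higher ones all lay on chromosome 1 in that fit. Of 12244 other genes tested with limma (Benjamini-Hochberg adjusted p under 0.05), 119 passed (0.972%): 13 were higher in high-Stk25 mice (0.106%) and 106 lower (0.866%). All 13 higher genes and 12 of the lower genes lie on chromosome 1, which gave 25 of its 709 genes (3.53%). The other 94 lower genes lie on other chromosomes, 0.815% of the 11533 genes tested there. These tests say that a gene varied with Stk25 across mice, since Stk25 of the same arrays formed the groups. In whole liver, fewer cells of a type and less RNA per cell cannot be told apart.

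**Figure D2:**
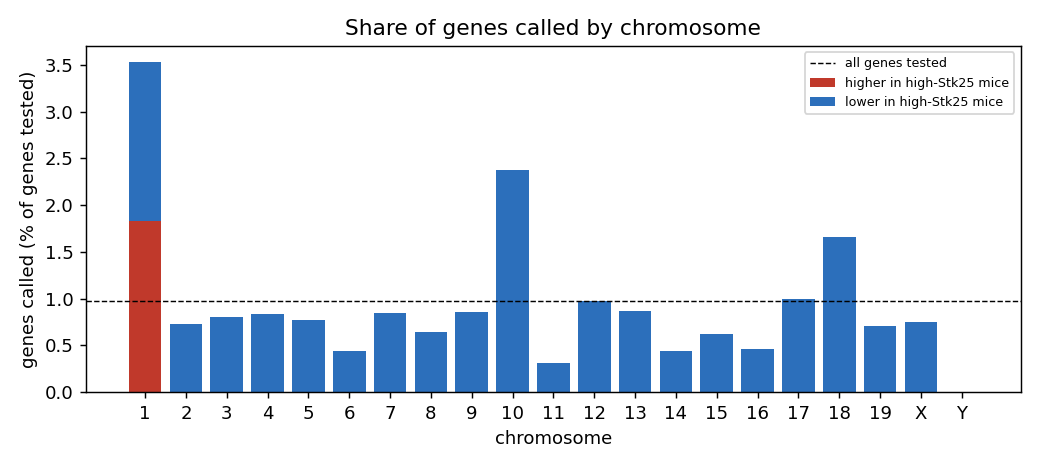
Genes that passed as a percentage of the genes tested on each chromosome (y axis), split into those higher and those lower in high-Stk25 mice, with the share over all genes as a dashed line. Chromosome 1 reaches 3.53% and holds all of the higher genes, chromosome 10 reaches 2.37%, and the line lies at 0.972%.

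Ctse, which encodes the aspartic protease cathepsin E, showed the widest gap of any gene tested. Ctse was -4.06 at the lowest, -3.25 at the median and 0.64 at the highest in high-Stk25 mice. It had a median of 0.12 in middle mice, and was -2.33, 0.55 and 1.94 in low-Stk25 mice. It fell by 3.16 ± 0.33 (SE) in high-Stk25 mice, or 8.96-fold (adjusted p = 7.29e-09), and 25 of 26 high mice lay below the low median. By a border chosen after seeing the values, 22 of 26 high mice had Ctse below -2, against 3 of 52 middle mice and 1 of 26 low mice. The groups still overlapped, through the 4 high mice above that border and the 1 low mouse below it. Ctse lies 38.0 Mb from Stk25.

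Timm17a, a subunit of the translocase that imports proteins across the inner mitochondrial membrane, was the gene most like Stk25 (r = 0.64, rho = 0.64 over 104 mice that share arrays with it). Timm17a was -0.29, 0.41 and 1.02 at the lowest, median and highest in high mice, 0.03 at the median in middle mice, and -0.95, -0.48 and 0.79 in low mice. It rose by 0.75 ± 0.11 (adjusted p = 1.02e-05), and no high mouse lay below the low median. Atg16l1, which places the lipid tag on LC3 in autophagy, followed with r = 0.57. Atg16l1 was -0.06, 0.20 and 0.56 in high mice and -0.40, -0.07 and 0.07 in low mice, a rise of only 0.30 ± 0.04 (adjusted p = 1.02e-05) that was large beside its spread. Atg16l1 lies at -5.86 Mb from Stk25 (before it on the chromosome), the nearest of the 10 genes of smallest p on chromosome 1.

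Wdfy1, a protein of early endosomes that binds a phosphoinositide lipid, had the most negative r (-0.642), close to that of Ctse (-0.639). Wdfy1 was -0.70, -0.24 and 0.57 in high mice and -0.11, 0.21 and 0.78 in low mice, and it fell by 0.45 ± 0.07 (adjusted p = 2.90e-05). On the limit-rich arrays alone Wdfy1 differed by -0.99, and without them by -0.34 (adjusted p = 0.00276). Pikfyve, a phosphoinositide kinase of endosomes and lysosomes, rose by 0.44 ± 0.08 (r = 0.53, adjusted p = 5.19e-04).

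Ildr2, a membrane protein studied for lipid handling in mouse liver, was -0.91, 0.46 and 1.57 in high mice and -2.33, -0.82 and 0.40 in low mice. It rose by 1.24 ± 0.20 (2.36-fold, adjusted p = 6.65e-05), although it lies 72.7 Mb from Stk25. Cenpl, a centromere protein 67.4 Mb away, rose by 0.89 ± 0.14 (adjusted p = 5.36e-05). On the limit-rich arrays alone the differences were larger, 2.03 for Ildr2 and 1.70 for Cenpl.

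The other genes among the 10 of smallest p on chromosome 1 were lower in high mice. They were 3110009E18Rik (-0.83 ± 0.11, adjusted p = 1.68e-06), Ccdc150 (-0.77 ± 0.13, 7.74e-05), the fork-restart helicase Smarcal1 (-0.21 ± 0.03, 7.74e-05) and the RNA helicase Ddx59 (-0.41 ± 0.07, 1.05e-04). Every high mouse lay below the low median for 3110009E18Rik and for Smarcal1.

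A further 14 genes of chromosome 1 passed and are named here after their values were seen. Those higher in high mice were Aox3, a liver aldehyde oxidase (1.26 ± 0.24), Kansl1l (1.04 ± 0.22), the replication helicase subunit Mcm6 (1.02 ± 0.25), Fmo2, a flavin monooxygenase (0.72 ± 0.15), the polysialyltransferase St8sia4 (0.55 ± 0.14), Prrc2c (0.41 ± 0.09), Ppox of heme synthesis (0.32 ± 0.07) and Lancl1 (0.32 ± 0.08). Those lower were the interferon-inducible Ifi202b (-1.15 ± 0.25), Dcaf6 (-0.58 ± 0.12), 3110045C21Rik (-0.57 ± 0.10), the desmosome protein Pkp1 (-0.53 ± 0.11), Rpe of the pentose phosphate pathway (-0.43 ± 0.10) and the ubiquitin ligase Cop1 (-0.33 ± 0.09). Without the limit-rich arrays 4 of these no longer passed: Rpe (-0.33, adjusted p = 0.171), Lancl1 (0.30, 0.177), St8sia4 (0.52, 0.101) and Cop1 (-0.34, 0.130).

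**Figure D3:**
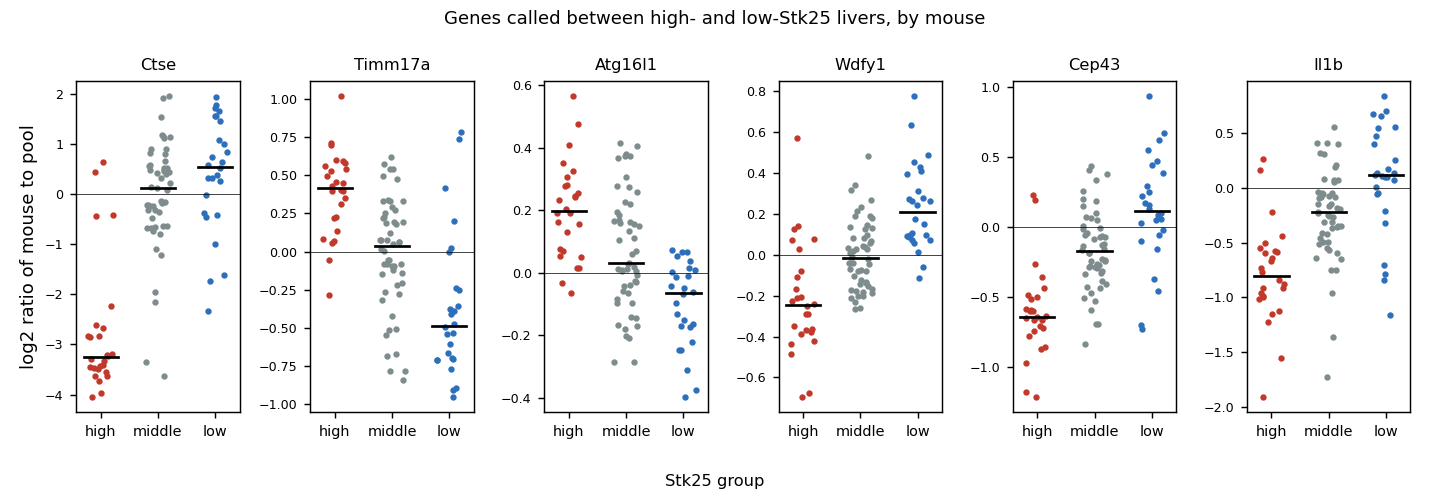
Level of 6 genes (log2 ratio of mouse to pool, y axis) in each mouse of the high, middle and low Stk25 groups, with a bar at the group median. Ctse has medians of -3.25, 0.12 and 0.55 in the high, middle and low groups, while Timm17a and Atg16l1 run the other way, with medians of 0.41, 0.03 and -0.48 for Timm17a.

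Few genes close to Stk25 passed, and the shares of the 2 nearer classes rest on 1 and 2 calls. Within 5 Mb of Stk25 only 1 of 47 genes passed (2.13%), St8sia4, at 1.99 Mb. It did not pass without the limit-rich arrays (limma adjusted p = 0.101). From 5 to 20 Mb 2 of 102 passed (1.96%), from 20 to 50 Mb 13 of 206 (6.31%), and beyond 50 Mb 9 of 354 (2.54%), against 0.972% over all genes. At an unadjusted p under 0.05 the shares were 17.0%, 10.8%, 21.4% and 14.4%, against 6.48% over all genes and 5.89% on other chromosomes. By either count the share was highest from 20 to 50 Mb, and not in the class nearest to the gene. These shares were not tested against each other.

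The 3 nearest measured genes on each side are given here. Before adjustment the limma p was under 0.05 for Hdlbp (0.00264) and Thap4 (0.0260). None passed: the apoptosis gene Bok differed by 0.22 ± 0.16 (adjusted p = 0.765), Thap4 by 0.13 ± 0.06 (0.716) and Atg4b, the protease that processes LC3, by -0.04 ± 0.06 (0.878). On the other side the cytoskeletal Septin2 differed by -0.07 ± 0.07 (0.811), Ppp1r7, a phosphatase regulator, by -0.00 ± 0.07 (0.990) and Hdlbp, an RNA-binding protein also called vigilin, by -0.25 ± 0.08 (0.199). Hdlbp was -0.74, -0.04 and 0.55 in high mice and -0.58, 0.22 and 0.65 in low mice, so the groups overlapped widely, although 24 of 26 high mice lay below the low median. With the groups formed by the second Stk25 probe alone, Hdlbp passed (-0.29, adjusted p = 0.0213).

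**Figure D4:**
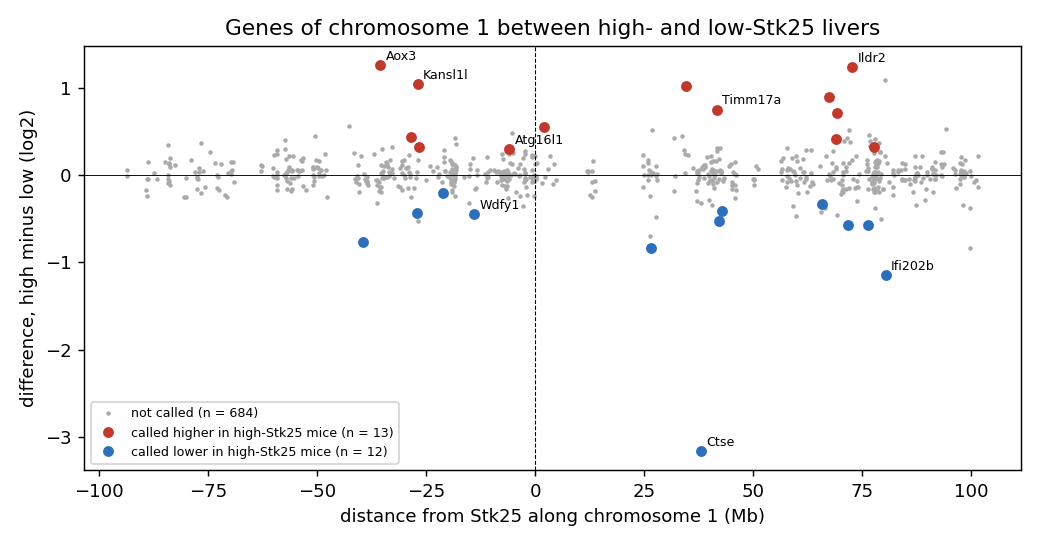
Difference between high- and low-Stk25 mice (log2, y axis) for each gene of chromosome 1 against its distance from Stk25 (Mb, x axis), with genes that passed coloured by direction. The 25 genes that passed are spread from -39.3 to 80.3 Mb, and Ctse at -3.16 stands far below the rest.

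The 94 genes that passed on other chromosomes were all lower in high-Stk25 mice, by 0.17 to 0.86 with a median difference of -0.56. Il1b, the cytokine interleukin 1 beta, was -1.92, -0.80 and 0.27 in high mice and -1.16, 0.12 and 0.84 in low mice, and it fell by 0.86 ± 0.13 (adjusted p = 3.35e-05). It is 1 member of a block that varied together and is not read here as a measure of inflammation. Neutrophil markers had a median difference of 0.30 (0 of 9 negative), or 0.16 without the limit-rich arrays. Macrophage and Kupffer cell markers had 0.18 (1 of 12 negative). None of these markers passed. Cell type markers as a whole leaned the same way, with 22% negative against 48.4% over all genes. The relation of Il1b to them was not tested. Cep43, a centrosome protein, was -1.22, -0.64 and 0.23 in high mice and -0.73, 0.11 and 0.93 in low mice. It fell by 0.72 ± 0.10 (adjusted p = 6.67e-06), the smallest p outside chromosome 1.

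The other 6 of the 8 genes of smallest p were Tnfaip8l2, a negative regulator of immune signalling (-0.55 ± 0.08, adjusted p = 2.28e-05), Kifbp, a kinesin-binding protein (-0.42 ± 0.06, 2.36e-05), 1110019D14Rik (-0.55 ± 0.09, 3.35e-05), Pdlim7 (-0.76 ± 0.12, 3.35e-05), Sfrp5, a secreted Wnt antagonist (-0.70 ± 0.11, 3.35e-05), and Cartpt, a neuropeptide precursor (-0.75 ± 0.12, 3.35e-05). For Cartpt and 1110019D14Rik every high mouse lay below the low median. Chromosome 10 held 14 of the 94, which is 2.37% of its 590 genes tested.

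These 94 genes, chosen from these values, varied together. Their median pairwise Pearson r over 104 mice was 0.81, with a range from 0.07 to 0.998, on arrays they share. Their mean level was -1.22, -0.50 and 0.33 at the lowest, median and highest in high mice, had a median of -0.17 in middle mice, and was -0.83, 0.11 and 0.81 in low mice. The mean level of the block had r = -0.51 with Stk25 and 0.58 with Ctse. Within the groups its r with Stk25 was -0.08 in high, 0.04 in middle and -0.36 in low mice, and its r with Ctse 0.34, 0.24 and 0.57. It also had r = 0.49 with the first principal component of the 10105 genes that had a value in every mouse. Its r with the number of values at the limits of an array was 0.11. With that component as a covariate, 86 genes on other chromosomes passed. With array class (limit-rich or other) as a block 96 passed there, and without the limit-rich arrays 85. Of all genes that had passed, on any chromosome, 106, 118 and 97 passed again in these fits, in that order. The part of the component and of the limit values in the result was not tested further. All but 6 of the 94 genes were measured by 1 probe. They also included Zan (-0.69), Krt71 (-0.69), Mip (-0.60) and Sstr5 (-0.75), named after their values were seen.

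On chromosomes other than 1 no gene passed as higher in the limma fit of these groups. The 4 of smallest p were the kinase Stk26 (0.19 ± 0.05, adjusted p = 0.0611), the protease inhibitor Csta2 (0.20 ± 0.06, 0.0692), the linker histone H1f5 (0.37 ± 0.11, 0.0782, measured in 25 mice of each group) and the transcription factor Hivep2 (0.42 ± 0.12, 0.101). Each passed as higher under at least 1 other setting. In the rank sum test the adjusted p was 0.0153 for Csta2, 0.0300 for Hivep2 and 0.0450 for Stk26. After quantile normalization limma gave 0.0173 for Csta2 and 0.0167 for H1f5, and with groups by the second Stk25 probe 0.0447 for Csta2 and 0.0209 for Stk26.

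The middle mice, which took no part in the choice of the groups, gave a separate view. With limma no gene of 12244 passed for a slope on Stk25 over the 52 middle mice (0%), and 758 had an unadjusted p under 0.05 (6.19%). Of the 25 genes of chromosome 1 that had passed, 18 had a slope of the same sign, 8 of them with an unadjusted p under 0.05. These 8 were Timm17a (slope 0.53 ± 0.18 log2 per log2 of Stk25), 3110009E18Rik (-0.53 ± 0.21), Wdfy1 (-0.21 ± 0.09), Smarcal1 (-0.27 ± 0.09), Pikfyve (0.28 ± 0.12), Aox3 (1.37 ± 0.50), Kansl1l (1.29 ± 0.44) and Rpe (-0.47 ± 0.15), named after their values were seen.

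Of the 94 genes on other chromosomes only 24 kept their sign in the middle mice, and none had an unadjusted p under 0.05. Over all genes 38.6% had the same sign. Ctse had a slope of -0.50 ± 0.56 in the middle mice (unadjusted p = 0.371) and Cep43 of -0.05 ± 0.15 (0.733). Stk25 of the middle mice spans only -0.57 to 0.29.

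No measured gene of the 7 lipid lists passed between high- and low-Stk25 livers. Ildr2 and Pikfyve, which passed, are in none of these lists. The same holds for Plpp3, a phospholipid phosphatase (-0.39 ± 0.10, limma adjusted p = 0.0213), and Tlcd3b (-0.305 ± 0.078, 0.0299). These 2 are named after their values were seen, and neither passed without the limit-rich arrays (0.106 and 0.249). The lists therefore do not cover every gene of lipid handling. Of the 101 measured genes limma called 0 and 10 had an unadjusted p under 0.05 (9.90%, against 6.48% over all genes). The rank sum test also called 0 of them, while over all genes it called 144 (1.18%), 18 higher (0.147%) and 126 lower (1.03%). All 10 had lower means in high mice: Pparg and Sc5d, G0s2, Plin2 and Plin5 of lipid droplets, Agpat2, Mogat1 and Pdia3, and Cpt2 and Etfdh of fatty acid oxidation. Over the lists 70 of 101 differences were negative, with a median of -0.11, against 48.4% negative and a median of 0.00 over all genes.

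Among the lists, fatty acid oxidation genes had a median difference of -0.32 (13 of 14 negative), triglyceride synthesis and secretion genes -0.18 (13 of 14) and lipid droplet genes -0.15 (12 of 15). Fatty acid synthesis genes had -0.09, uptake and binding genes -0.08, cholesterol export and bile acid genes -0.05 and cholesterol synthesis genes 0.05. The mean level of the oxidation list ran from -2.33 to 0.83 in high mice and from -1.71 to 0.55 in low mice, so the groups overlapped almost wholly.

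**Figure D5:**
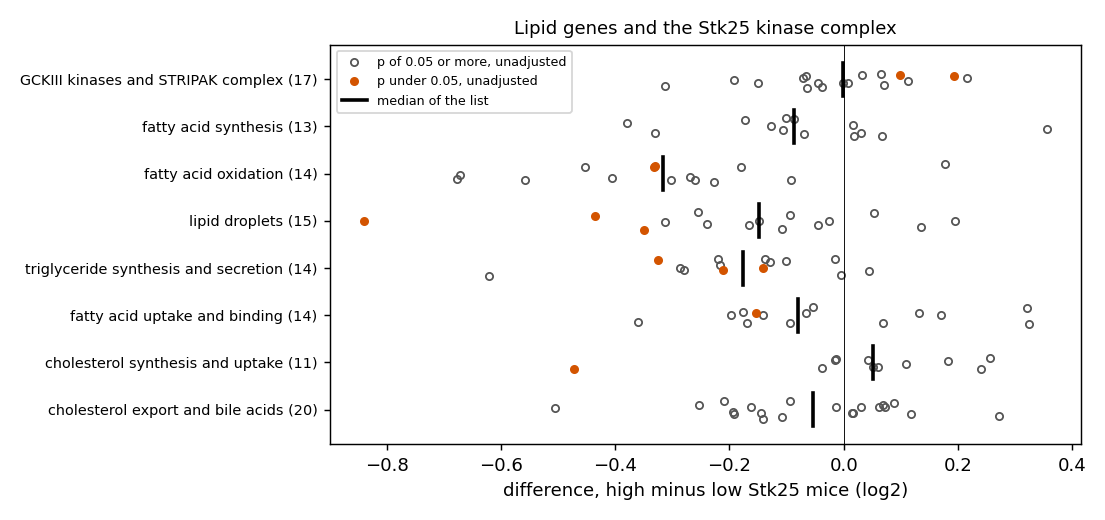
Difference between high- and low-Stk25 mice (log2, x axis) for each measured gene of the lipid lists and of the Stk25 kinase complex, one row per list with its number of genes, and a bar at the list's median. Filled circles have an unadjusted p under 0.05, no gene passes after adjustment, and the median of fatty acid oxidation lies lowest, at -0.32.

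Plin2, which coats lipid droplets, was -1.06, -0.25 and 1.08 in high mice and -0.84, 0.08 and 1.23 in low mice (difference -0.35 ± 0.15, adjusted p = 0.678). G0s2, an inhibitor of the lipase Pnpla2, had the most negative difference of the lipid genes, -0.84 ± 0.29 (adjusted p = 0.347). It lies on chromosome 1, as does Mogat1, and is named after its values were seen. Pparg, a nuclear receptor that promotes fat storage, differed by -0.15 ± 0.05 (0.238) and Cpt1a, which admits fatty acids to mitochondria, by -0.18 ± 0.10 (0.752). Cidec differed by -0.25 ± 0.29 (0.821), the fatty acid transporter Cd36 by -0.05 ± 0.12 (0.913) and Dgat2, of the last step of triglyceride synthesis, by -0.13 ± 0.12 (0.796). The desaturase Scd1 differed by 0.07 ± 0.10 (0.861) and fatty acid synthase Fasn by 0.03 ± 0.13 (0.959). The signs of Cidec, Cd36, Dgat2, Scd1, Fasn and Pparg turned under at least 1 other setting.

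In the middle mice the lipid genes leaned the other way. Of the 101 genes 80 had a positive slope on Stk25, against 6286 of 12244 over all genes, and the medians were 0.30 and 0.01. An unadjusted limma p under 0.05 was found for 19 of the 101, all of them positive, against 758 of 12244 (6.19%) over all genes. None passed after adjustment (smallest adjusted p = 0.781). Dgat2 had a slope of 0.75 ± 0.29 and Cd36 of 0.68 ± 0.25 there, while Plin2 had 0.44 ± 0.34. The opposite signs in the contrast and in the middle mice were not tested against each other.

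No measured partner of Stk25 in its kinase complex passed in the limma fit. Of 17 genes limma called 0, the rank sum test called 1, Stk26, and 2 had an unadjusted p under 0.05, Stk26 and the striatin Strn3 (0.10 ± 0.04, adjusted p = 0.738). The 2 are 11.8% of the list, against 6.48% over all genes, and the rank sum test called 1.18% of all genes. The median difference was -0.00. Stk26 was -0.25, -0.08 and 0.46 in high mice and -0.49, -0.21 and 0.15 in low mice, with an adjusted p of 0.0450 in the rank sum test. Its direction and its call both depended on how the groups were formed. The difference was -0.072 with groups by the first Stk25 probe (adjusted p = 0.9999), 0.25 by the second (0.0209) and 0.055 with 34 against 34 mice (0.9999). Its slope in the middle mice ran the other way (-0.58 ± 0.25, unadjusted p = 0.0226). The closest relative, Stk24, differed by 0.11 ± 0.08 (adjusted p = 0.767). Pdcd10 was not among the genes tested.

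No gene of the insulin and glucose list (14 measured) or of the oxidative and ER stress list (17) passed, with 2 genes at an unadjusted p under 0.05 in each and medians of 0.01 and -0.02. Markers of the cell types that a liver sample could hold did not pass in the limma fit either. Of 100 measured markers limma called 0, the rank sum test called 1, the muscle gene Myl1 of chromosome 1, and 4 had an unadjusted p under 0.05 (4%, against 6.48% over all genes, and 1.18% of all genes called by the rank sum test). Over the 100 markers 22% of differences were negative, against 48.4% over all genes, and the median was 0.10 against 0.00. The lean was thus not particular to 1 cell type: 2 of 12 T and NK cell markers and 2 of 10 muscle markers were negative. Neutrophil markers had a median difference of 0.30 with all 9 positive, and of 0.16 without the limit-rich arrays. Bile duct markers had 0.22 with all 6 positive, and macrophage and Kupffer cell markers had 0.18 with 11 of 12 positive. Hepatocyte markers had a median difference of 0.03, T and NK cell markers 0.10, B and plasma cell markers -0.01, endothelial markers -0.01, and markers of fibrosis and stellate cells 0.08. Those of pancreatic acinar cells had 0.12, skeletal muscle 0.14, adipocytes 0.05 and erythroid cells 0.05. The mean level of neutrophil markers ran from -1.90 to 2.34 in high mice and from -2.55 to 1.31 in low mice. Their part in the results was not tested.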

How the data were processed

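The deposited values are log ratios of each mouse liver to a common pool, 1 per probe and array, read here as log10 (not stated in the labels) because they stop at exactly -2 and 2. What the authors did to normalize them is not given in the sources used here. Arrays of mice 24, 55 and 91 were empty and took no part. Values at -2 or 2 (1.07% of all) were set missing, a further 1.69% were missing, and the rest were turned into log2. Depth does not apply to arrays, and their number limits the precision.

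Of 23536 probes, 14744 had 1 gene symbol in the platform annotation, 18 several and 8774 none here. Probes with values on at least 90% of 104 arrays were averaged per gene (12245 genes, 12243 matched in the GRCm38.p6 gene table, whose positions gave chromosomes and distances between gene midpoints). Groups were compared with limma 3.58.1 in R 4.3.3 (lmFit, eBayes, adjusted over 12244 genes without Stk25, threshold 0.05), and middle mice by limma slopes. The fits were also run on simulated data in which each gene was drawn independently. That run does not cover false calls among genes that vary together, as the block on other chromosomes did. The members and lists were chosen with earlier results of these data known, and lists by function. Named are Stk25, the 10 genes of chromosome 1 and the 8 on others in each direction of smallest p (4 where none passed), 11 lipid and kinase genes, the 3 nearest on each side, and the 5 of highest and 3 of lowest r.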

Additional observations from a re-analysis of the deposited data

How the results depend on the processing

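The 19 named genes that had passed kept their direction and call under the 13 alternatives other than the limit-rich arrays alone (247 of 247 values). On the limit-rich arrays alone all 19 lost the call and kept their sign. These 19 genes were picked for small p or extreme r, so they do not speak for all 119. The number of genes that passed was 119, and 97 to 148 under these alternatives. Of the 119, 91 were shared with groups by the first Stk25 probe and 93 with 34 against 34 mice. Without the limit-rich arrays 97 were shared, and after quantile normalization 119. The number of higher genes was 13 and became 21 after quantile normalization. The number of listed genes that passed was 0 and became 2 in the rank sum test and 1 with groups by the second Stk25 probe. On the limit-rich arrays alone (4 high and 5 low mice, an alternative chosen after seeing the data) 0 genes passed, so the counts of higher, lower, chromosome 1 and other genes were all 0, while 274 of 11640 had an unadjusted p under 0.05. No paired analysis was possible because there is 1 group of mice with unrepeated numbers. For the middle mice the count was 0 with and without the limit-rich arrays.

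Calls were gained by Csta2, Hivep2 and Stk26 in the rank sum test, by Csta2 and H1f5 after quantile normalization, and by Csta2, Stk26 and Hdlbp with groups by the second probe. Directions turned for genes that had not passed, and the cause was not tested. With 34 against 34 mice Cidec gave 0.12, Cd36 0.14, Dgat2 0.015 and Ppp1r7 0.038, and the slopes over all mice were 0.0033, 0.072, 0.019 and 0.025. In the rank sum test the difference of medians was 0.094 for Cidec, 0.037 for Cd36 and -0.0072 for Fasn. With groups by the first probe the values were -0.072 for Stk26, -0.16 for Scd1, 0.073 for Cd36, 0.093 for Dgat2 and 0.089 for Ppp1r7, and by the second probe 0.027 for Cd36. Cd36 gave 0.012 with the first principal component as a covariate and Atg4b 0.0068 without the limit-rich arrays. On the limit-rich arrays alone Pparg gave 0.053, Cd36 0.24, Dgat2 0.14 and Bok -0.091. The log base changes every fold and no call.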
